A study of Bos taurus with 8 samples.

Results

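The transcription factor ATF4 and 9 genes of the amino acid and stress programme it is known to drive were followed through the first 8 h of LPS exposure in bovine blood mononuclear cells. The 10 genes were ATF4, DDIT3, TRIB3, CHAC1, ASNS, PYCR1, ALDH18A1, PHGDH, PSAT1 and SHMT2. They were taken by name from the 21861 genes of the scRNA-seq tables, where all 10 were listed (PYCR1 as ENSBTAG00000000042 and ATF4 as ENSBTAG00000017462). The choice was made with results of these data in view, in particular the large rise of PYCR1 at 8 h. The 8 h and other RNA values of these genes are therefore given as descriptions, without a test. Blood of 4 Holstein cows, 2 years old and lactating, was pooled and split into 4 parts. Of these, 1 received no LPS and 3 received 2 µg/ml LPS, a cell wall component of Gram-negative bacteria, at 37 °C for 2 h, 4 h or 8 h. Mononuclear cells were isolated afterwards, and each part gave 1 scRNA-seq library and 1 scATAC-seq library. No incubation time is stated for the part without LPS, so LPS and time in incubation cannot be told apart in any ratio to it.

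ATF4 is the effector of the integrated stress response. Kinases that sense missing amino acids, misfolded protein, double-stranded RNA or low haem phosphorylate the initiation factor eIF2, which slows general translation but favours translation of the ATF4 mRNA. The ATF4 protein then activates genes for amino acid synthesis, uptake and tRNA charging. Because this control acts largely on translation, the ATF4 mRNA is not a measure of ATF4 activity.

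With 1 library per treatment, no comparison between treatments has a replicate check. All intervals below are at the 95% level and reflect counting error alone. The cells kept numbered 7821 without LPS and 9865, 7387 and 3411 after 2 h, 4 h and 8 h, and held between 16657841 and 47875879 UMIs per library. In the 8 h library 26.6% of the cells held under 2000 UMIs, against 8.83% to 14.3% in the other 3. Pairs of libraries shared between 8 and 24 cell barcodes. The CD14 level over all cells was 501 UMIs per 1000000 UMIs (CPM) without LPS and 82.6 to 145 CPM with LPS. Over all cells, fewer cells of a type and less RNA per cell cannot be told apart.

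Cells were therefore also grouped by raw UMIs of the surface marker genes CD14 (monocytes), CD3E (T cells), MS4A1 (B cells) and NCR1 (NK cells). Cells carrying a second marker were left out, where CD14 counted as a marker only from 2 UMIs. The MS4A1 gate held 1764, 2436, 1926 and 729 cells (no LPS, 2 h, 4 h and 8 h), and the CD3E gate 3629, 5003, 3895 and 1641. The CD14 gate held only 707, 308, 117 and 66 cells, and the NCR1 gate 63, 99, 90 and 38. All 10 B cell markers tested were detected in the MS4A1-gated cells of every library, at a summed level of 1607 to 2208 CPM against 114 to 156 CPM in the CD3E-gated cells. The 10 T cell markers summed to 921 to 1031 CPM in the CD3E-gated cells and the 10 monocyte markers to 12623 to 18437 CPM in the CD14-gated cells. In the CD14-gated cells the 5 granulocyte markers also reached 5340 to 10953 CPM. The NCR1-gated cells had 1079 to 1382 CPM of NK cell markers, with 464 to 585 CPM of the T cell list, which holds genes that NK cells also use, and 1295 to 1433 CPM of the monocyte list.

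Over all cells, PYCR1, which makes the last step of proline synthesis in mitochondria, stood at 4.75 CPM without LPS and 8.06, 19.0 and 14.2 CPM after 2 h, 4 h and 8 h. These levels rest on 183, 386, 763 and 237 UMIs. The level at 4 h was 4.00 times that without LPS (3.40 to 4.72), and the level at 8 h 2.99 times (2.46 to 3.65). By its 8 h ratio PYCR1 ranked 5 of the 8652 genes with at least 200 UMIs over the 2 libraries, and by its 4 h ratio 36 of 9125. The 8 h rank is the value for which PYCR1 was chosen. The intervals of all 3 LPS libraries lay above that of the library without LPS, and the 8 h level was lower than the 4 h level (ratio 0.749, 0.645 to 0.867). With no upper limit on genes per cell the ratios to no LPS were 2.32 at 4 h and 2.21 at 8 h, so the size of this fall depended on that limit.

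A gene was counted as higher when its CPM ratio was at least 2 and the compared libraries together held at least 20 UMIs of it, and all 10 members passed this minimum over all cells. At 2 h 2 of 10 members were higher (ASNS and CHAC1), where 2.05% of all genes were. Under the mean of per-cell CPM their ratios were 1.80 and 1.47 and neither was counted, and with no upper limit on genes per cell ASNS, at 1.67, was not. At 4 h the number was 3 (PYCR1, ASNS and CHAC1) beside 2.61% of all genes, and at 8 h it was 2 (PYCR1 and SHMT2) beside 2.78%. No member was lower by this rule in any of the 3, against 5.44%, 7.6% and 5.34% of all genes. Scaling by TMM or by DESeq2 size factors in place of total UMIs moved every 8 h log2 ratio over all cells by -0.13 or -0.12, which left 1 member past 2-fold there. The median log2 ratio of the members was 0.24, 0.67 and 0.59 at 2 h, 4 h and 8 h, beside -0.04, 0.03 and 0.12 for all genes tested. Since the members were chosen with these contrasts in view, and all 3 ratios share the library without LPS, nothing is read from the counts.

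ATF4 itself differed little over all cells, with 459 CPM without LPS and 519, 461 and 423 CPM after 2 h, 4 h and 8 h. DDIT3, which encodes the ATF4-induced partner factor CHOP, lay between 45.8 and 47.3 CPM in all 4 libraries. Its ratios to no LPS were 1.01 (0.947 to 1.07), 1.01 (0.948 to 1.08) and 0.980 (0.900 to 1.07) at 2 h, 4 h and 8 h. The gates below separate these levels by cell class.

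**Figure D1:**
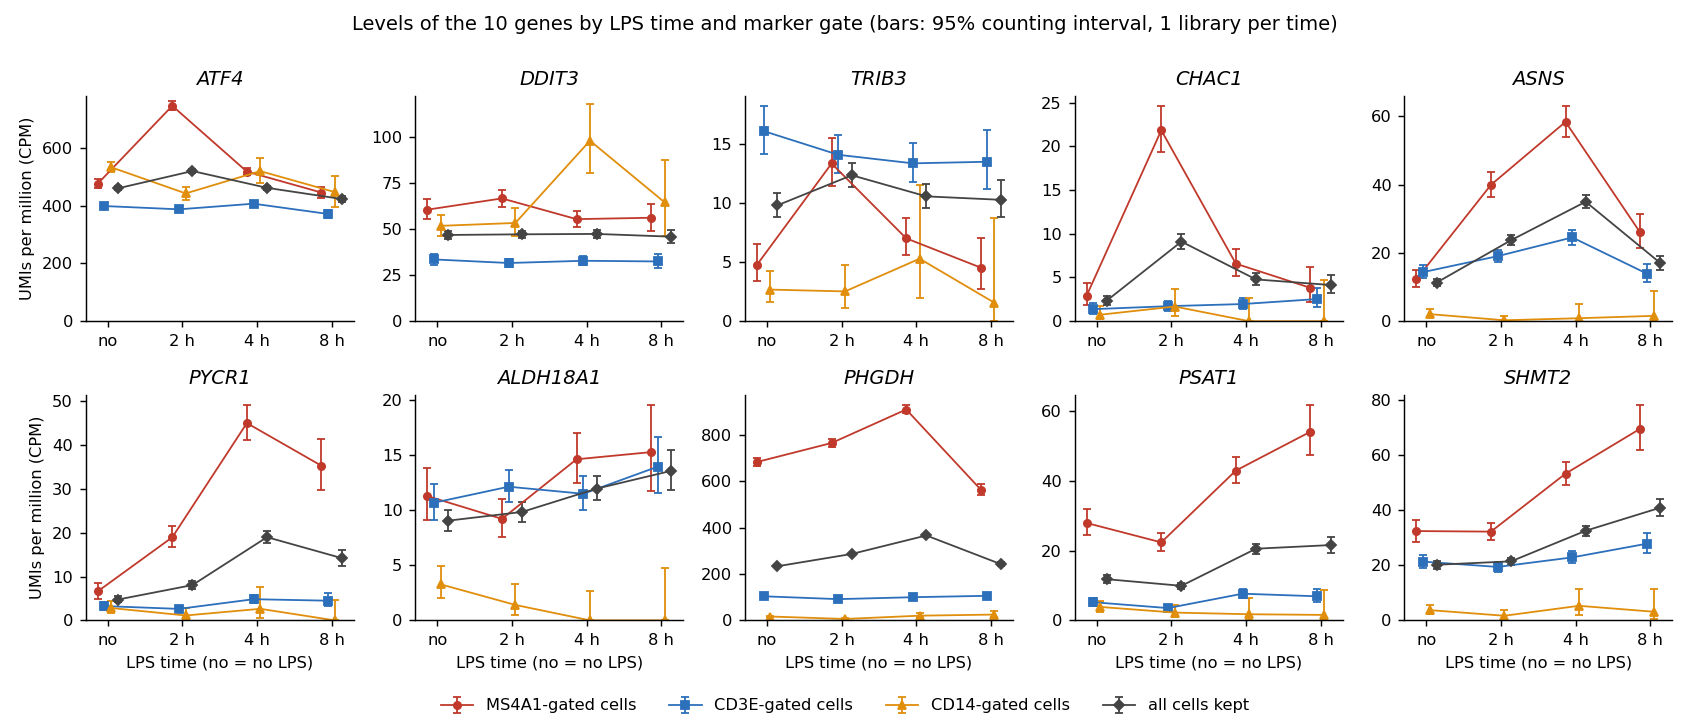
Levels of the 10 genes in UMIs per 1000000 UMIs (CPM) against LPS time, in MS4A1-gated, CD3E-gated and CD14-gated cells and in all cells kept. Points are single libraries with 95% counting intervals, and in the red MS4A1-gated points ATF4 peaks at 745 CPM at 2 h, PYCR1 at 45.0 CPM at 4 h and SHMT2 reaches 69.4 CPM at 8 h.

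In MS4A1-gated cells, ATF4 was at 475 CPM without LPS and 745, 517 and 445 CPM after 2 h, 4 h and 8 h. The 2 h level was 1.57 times that without LPS (1.51 to 1.63), and the 8 h level 0.936 times (0.885 to 0.989). The 2 h library stood above the other 3 by more than counting error. With no upper limit on genes per cell the 8 h ratio was 1.00, so no direction is given for 8 h.

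CHAC1, a glutathione-degrading enzyme and an early ATF4 target, was at 2.94 CPM without LPS in these cells and 21.8, 6.58 and 3.82 CPM after 2 h, 4 h and 8 h. The UMIs behind these values were 24, 275, 77 and 16. The 2 h ratio was 7.42 (4.88 to 11.8), the 4 h ratio 2.24 (1.40 to 3.70) and the 8 h ratio 1.30 (0.644 to 2.55), so the 8 h level could not be told from that without LPS at this depth. TRIB3, a pseudokinase that dampens ATF4 and CHOP, was also highest at 2 h, with 4.78 CPM without LPS and 13.3, 7.01 and 4.53 CPM after 2 h, 4 h and 8 h. Its 2 h ratio was 2.79 (1.96 to 4.06). DDIT3 was at 60.4, 66.5, 55.3 and 56.1 CPM, and the intervals of its 3 ratios to no LPS all included 1. Of the 4 regulatory and early response genes, ATF4, CHAC1 and TRIB3 were thus highest in the 2 h library by more than counting error, and DDIT3 was not.

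The genes for asparagine and proline were highest later. ASNS, which makes asparagine from aspartate and glutamine, was at 12.3 CPM without LPS in MS4A1-gated cells and 39.9, 58.4 and 26.0 CPM after 2 h, 4 h and 8 h. Its ratios to no LPS were 3.26 (2.62 to 4.08), 4.76 (3.86 to 5.93) and 2.12 (1.60 to 2.81). The intervals of the 4 levels did not overlap, and the order from low to high was no LPS, 8 h, 2 h and 4 h. PYCR1 was at 6.62 CPM without LPS and 19.0, 45.0 and 35.3 CPM after 2 h, 4 h and 8 h, from 54, 239, 527 and 148 UMIs. The ratios were 2.87 (2.13 to 3.93), 6.80 (5.14 to 9.18) and 5.33 (3.88 to 7.43). With no upper limit on genes per cell they were 2.05, 4.26 and 3.73. ALDH18A1, which makes the precursor that PYCR1 reduces to proline, was at 11.3, 9.21, 14.6 and 15.3 CPM. Its largest ratio was 1.35 at 8 h (0.968 to 1.88), so the step before PYCR1 showed no difference of the size that PYCR1 did.

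The 3 serine and glycine enzymes followed different orders in MS4A1-gated cells. PHGDH, the first enzyme of serine synthesis, was at 683 CPM without LPS and 765, 909 and 564 CPM after 2 h, 4 h and 8 h. The 4 h ratio was 1.33 (1.29 to 1.38) and the 8 h ratio 0.826 (0.786 to 0.866). PSAT1, the second enzyme, was at 27.9, 22.4, 43.0 and 54.1 CPM, with a ratio of 0.801 at 2 h (0.670 to 0.958) and 1.94 at 8 h (1.61 to 2.34). SHMT2, the mitochondrial enzyme that splits serine into glycine and a one-carbon unit, was at 32.4, 32.2, 53.2 and 69.4 CPM. Its 8 h ratio was 2.14 (1.81 to 2.54), and its 2 h ratio 0.994 (0.849 to 1.16). PSAT1 and SHMT2 were thus highest in the 8 h library, where PHGDH was lowest.

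In MS4A1-gated cells 4 of 10 members were at least 2-fold higher at 2 h (PYCR1, ASNS, CHAC1 and TRIB3), where 3.63% of all genes were. At 4 h 3 were (PYCR1, ASNS and CHAC1), again beside 3.63%, and at 8 h 3 (PYCR1, ASNS and SHMT2) beside 3.22%. None was 2-fold lower, beside 4.79%, 8.28% and 3.11% of all genes. The median log2 ratio of the members was 0.41, 0.59 and 0.41, beside -0.13, -0.11 and 0.01 for all genes tested. Lymphocyte activation markers (9 of 10 detected, among them CD69, CD83 and MYC) summed to 585 CPM in these cells without LPS and 2267, 1527 and 867 CPM after 2 h, 4 h and 8 h. Monocyte markers went from 562 CPM without LPS to 209, 136 and 398 CPM, and granulocyte markers from 259 to 31.0, 21.2 and 151 CPM. Cycling markers stayed between 130 and 179 CPM and plasma cell markers between 152 and 369 CPM. The part of these lists in the members' levels was not tested.

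**Figure D2:**
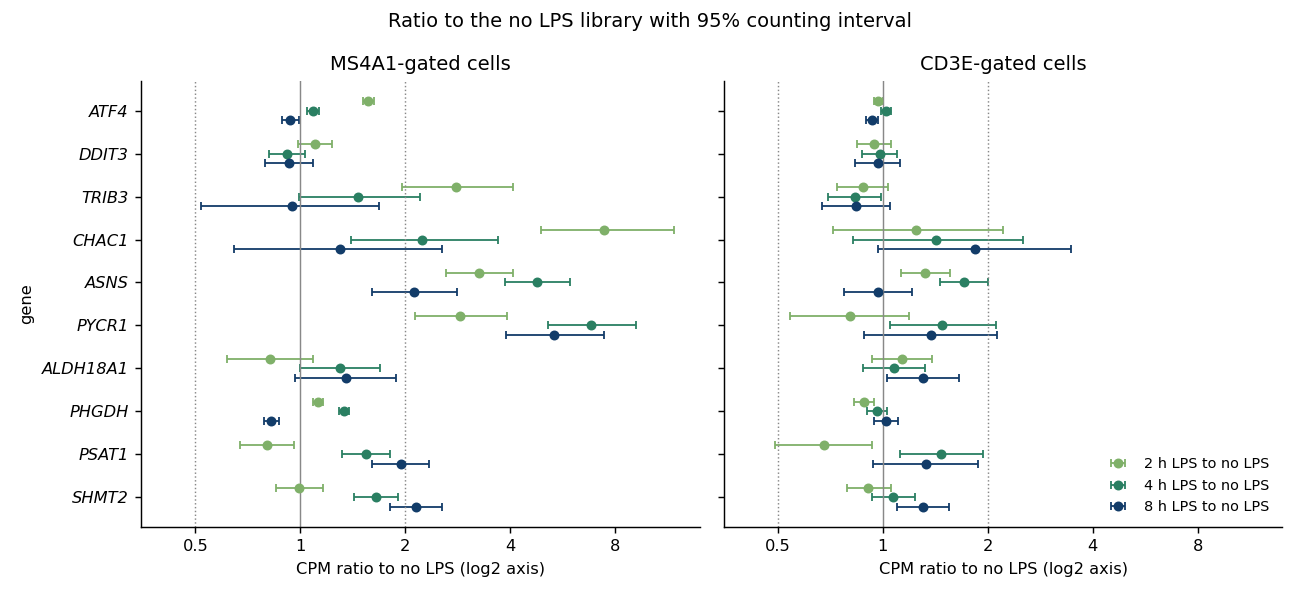
CPM ratio of each LPS library to the library without LPS in MS4A1-gated cells (left) and CD3E-gated cells (right), on a log2 axis, with 95% counting intervals and dotted lines at 0.5 and 2. In MS4A1-gated cells CHAC1 reaches 7.42 at 2 h and PYCR1 6.80 at 4 h (4.26 with no upper limit on genes per cell), while in CD3E-gated cells no ratio reaches 2.

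In CD3E-gated cells none of the 10 members was at least 2-fold higher at 2 h, 4 h or 8 h, where 1.42%, 2.14% and 2.61% of all genes were. None was 2-fold lower either, beside 2.04%, 2.69% and 1.36%. Activation markers summed to 376 CPM in these cells without LPS and to 534 to 844 CPM with LPS. PYCR1 was at 3.27, 2.62, 4.84 and 4.49 CPM (no LPS, 2 h, 4 h and 8 h), with a 4 h ratio of 1.48 (1.05 to 2.12). ASNS was at 14.4, 19.0, 24.5 and 13.9 CPM, a 4 h ratio of 1.71 (1.46 to 2.00) and an 8 h ratio of 0.970 (0.771 to 1.21). ASNS was thus highest at 4 h in both lymphocyte gates. ATF4 stayed between 371 and 406 CPM and DDIT3 between 31.5 and 33.5 CPM. TRIB3 was at 16.1, 14.1, 13.4 and 13.5 CPM, without the 2 h peak of the MS4A1-gated cells.

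In CD14-gated cells none of the 10 members was at least 2-fold higher either, beside 4.71%, 6.56% and 6.84% of all genes, and 6 to 8 of them reached 20 UMIs. Counting cells with a second gate marker raised the numbers to 1, 4 and 2. The share of all genes was not computed for that gate, so nothing is read from these numbers. PYCR1 had 19, 4, 3 and 0 UMIs there, and 0 UMIs at 8 h allow a level of up to 4.71 CPM. At 2 h 4 members were at least 2-fold lower (PYCR1, PHGDH, SHMT2 and ALDH18A1), beside 28.5% of all genes, and the median log2 ratio was -0.96 for the members and -0.61 for all genes. At 4 h and 8 h PSAT1 alone was, with 2 and 1 UMIs, beside 15% and 8.67%. ALDH18A1 had 22 UMIs without LPS and 0 at 4 h and 8 h. Because 0 UMIs were set to 3, it could not be counted as lower, and the same rule held for all genes. DDIT3 was at 51.7 CPM without LPS and 53.2, 97.8 and 64.4 CPM after 2 h, 4 h and 8 h. Its 4 h ratio of 1.89 (1.51 to 2.35) rests on 111 UMIs in 117 cells. ATF4 was at 532, 442, 519 and 446 CPM in these cells. DDIT3 was thus highest at 4 h in CD14-gated cells, and in CD3E-gated cells the intervals of its ratios to no LPS all included 1. The difference between gates was not tested.

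In NCR1-gated cells most members were at or near the floor, with at most 7 UMIs of PYCR1 per library, and only 3 or 4 of 10 reached 20 UMIs. By the 2-fold rule SHMT2 alone was higher, at 4 h, with a ratio of 2.60 whose interval ran from 0.849 to 10.6, beside 5.69% of all genes. No member was higher at 2 h or 8 h, beside 5.72% and 4.25%. ATF4 was at 368 CPM without LPS and 469, 420.2 and 483 CPM after 2 h, 4 h and 8 h.

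The gates also differed without LPS. There the level in MS4A1-gated cells was 6.58 times that in CD3E-gated cells for PHGDH (6.22 to 6.95) and 5.36 times for PSAT1 (4.15 to 6.98). For PYCR1 it was 2.03 times (1.36 to 3.03), for SHMT2 1.52 times (1.29 to 1.79), and for ASNS 0.852 times (0.667 to 1.08). TRIB3 went the other way, at 0.297 times (0.207 to 0.418). At 4 h the PYCR1 level in MS4A1-gated cells was 9.31 times that in CD3E-gated cells (7.48 to 11.7) and that of ASNS 2.38 times (2.12 to 2.68). PHGDH and PSAT1 thus already stood apart between the gates without LPS, whereas the interval for ASNS included 1 without LPS and lay above it at 4 h.

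The share of MS4A1-gated cells with a PYCR1 UMI was 2.61% without LPS and 7.96%, 19.5% and 14.8% after 2 h, 4 h and 8 h. To compare cells of equal depth, each cell was thinned to 1000 UMIs, which left out 58, 30, 26 and 50 shallower cells. The share was then 0.879% (exact binomial interval 0.493% to 1.45%), 1.41% (0.981% to 1.97%), 3.37% (2.60% to 4.28%) and 3.39% (2.16% to 5.04%). In CD14-gated cells, deeper at a median of 9665 to 12607.5 UMIs against 3852 to 5204 in the MS4A1-gated cells, at most 2.26% had a PYCR1 UMI before thinning. The 4 h and 8 h shares in MS4A1-gated cells thus lay above that of a deeper gate. Without LPS the unthinned shares were close (2.61% and 2.26%), but the gates differed in depth. After thinning they were 0.879% in MS4A1-gated and 0.149% (0.00377% to 0.826%) in CD14-gated cells. As CPM, the PYCR1 level without LPS was 2.35 times that in CD14-gated cells (1.37 to 4.19). For CHAC1 the thinned share was 0.0586%, 1.83%, 0.368% and 0.295%, with the peak at 2 h, beside at most 0.667% in CD14-gated cells. For ATF4 it was 37.3%, 49.7%, 41.3% and 36.2%.

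A larger share of the PYCR1 UMIs of the cells kept lay in the MS4A1 gate with LPS than without. MS4A1-gated cells held 29.5% of them without LPS and 61.9%, 69.1% and 62.4% after 2 h, 4 h and 8 h, while they made up 21.4% to 26.1% of the cells. Higher levels with LPS were not confined to that gate. The cells in no gate (1658, 2019, 1359 and 937) had PYCR1 at 7.19, 9.22, 18.7 and 17.0 CPM. ASNS was at 11.8, 22.3, 31.9 and 17.0 CPM in them and SHMT2 at 19.5, 19.6, 29.6 and 47.1 CPM. The part of each cell class in these levels was not tested. The limit of 3000 genes per cell decided much of the total, however. Cells above it (619, 511, 542 and 419) held 67.1%, 46.9%, 39.2% and 63.8% of the PYCR1 UMIs of all barcodes within the other limits. Among them, 135, 152, 106 and 44 cells carried at least 20 UMIs of the plasma cell genes JCHAIN and MZB1, a grouping made after the data were seen. These few cells held 51.9% of the PYCR1 UMIs without LPS and 38.9%, 21.0% and 24.4% after 2 h, 4 h and 8 h. Their PYCR1 level was 44.8, 46.3, 53.0 and 55.9 CPM, as high without LPS as that of MS4A1-gated cells at 4 h (45.0 CPM). The 8 h ratio in them was 1.25 (1.02 to 1.52).

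The same cells were high in several other members as well, but not in PHGDH. PHGDH was at 541 CPM (524 to 560) in them without LPS, below the 683 CPM (665 to 701) of MS4A1-gated cells. Without LPS they had 43.9 CPM of ASNS, 73.2 of PSAT1, 109 of SHMT2, 28.8 of ALDH18A1 and 721 of ATF4, against 12.3, 27.9, 32.4, 11.3 and 475 CPM in MS4A1-gated cells. Their marker lists differed too: cycling markers summed to 1429 to 1988 CPM over the 4 libraries, against 130 to 179 CPM in MS4A1-gated cells, monocyte markers to 1580 to 3916 CPM and granulocyte markers to 607 to 2146 CPM. The part of these lists in the members' levels was not tested. The other cells above the limit had 6.52 CPM of PYCR1 without LPS and 5.96, 20.2 and 22.7 after 2 h, 4 h and 8 h. In these other cells 1 member was at least 2-fold higher at 2 h (CHAC1), 5 at 4 h (PYCR1, ASNS, PHGDH, SHMT2 and CHAC1) and 5 at 8 h (PYCR1, ASNS, PSAT1, SHMT2 and CHAC1), beside 2.7%, 6.07% and 5.91% of all genes. The makeup of these mixed cells moved as well, with B cell markers at 277, 333, 393 and 499 CPM (no LPS, 2 h, 4 h and 8 h), monocyte markers at 8841, 5115, 4240 and 7169 CPM and granulocyte markers at 4390, 1717, 1951 and 5082 CPM, and its part in the counts was not tested. With no limit on genes, the PYCR1 ratios over all cells were 1.19, 2.32 and 2.21, and with the cells rich in JCHAIN and MZB1 also left out the 8 h ratio was 3.67. Over all cells, the PYCR1 level with LPS was thus above that without LPS under each of these limits. The factor depended on whether the JCHAIN and MZB1 cells were counted. In the other cells above the limit on genes, taken alone, the 2 h level was not above that without LPS (5.96 and 6.52 CPM). In neither group above the limit on genes was the 8 h level of PYCR1 below the 4 h level, and the intervals at these times overlapped.

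**Figure D3:**
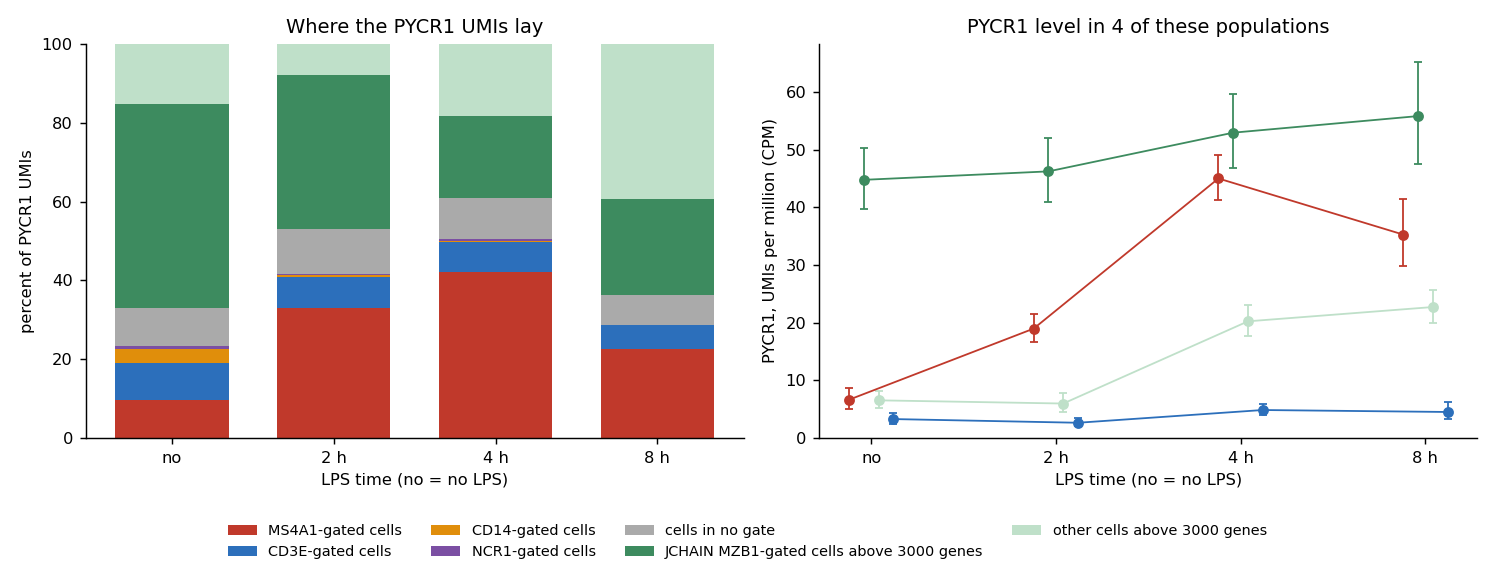
Left, percent of the PYCR1 UMIs of each library that lay in each group of cells (within all limits but that on genes). Right, PYCR1 level in 4 of these groups with 95% counting intervals. The red MS4A1-gated cells hold 9.69% of the UMIs without LPS and 42.0% at 4 h, and the dark green cells rich in JCHAIN and MZB1 stay between 44.8 and 55.9 CPM.

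Within the MS4A1-gated cells of the 8 h library, 108 cells with a PYCR1 UMI were set beside 621 without one. The former were deeper, at a median of 8392 against 4715 UMIs, so the sums were compared as CPM. ASNS was at 53.0 CPM in the cells with a PYCR1 UMI and 18.4 CPM in the others, a ratio of 2.89 (1.94 to 4.28). The ratio was 1.97 for SHMT2 (1.53 to 2.51), 1.71 for PSAT1 (1.28 to 2.27) and 1.46 for PHGDH (1.34 to 1.60). For ATF4 it was 0.884 (0.787 to 0.990) and for ALDH18A1, from only 14 and 50 UMIs, 0.990 (0.505 to 1.82). At 4 h, where 376 cells had a PYCR1 UMI, the ratio was 2.30 for ASNS (1.97 to 2.68), 1.73 for ALDH18A1 (1.25 to 2.39), 1.42 for SHMT2, 0.907 for ATF4 (0.854 to 0.963) and 0.642 for DDIT3 (0.520 to 0.787). MS4A1-gated cells with a PYCR1 UMI thus had more ASNS and serine enzyme mRNA and not more ATF4 or DDIT3 mRNA. Lymphocyte activation markers were also higher in these cells (1.41 times at 4 h and 1.42 times at 8 h). Among them MYC was at 1.49 and 1.87 times, and IRF4 at 1.47 times at 4 h and 0.835 times at 8 h (0.541 to 1.25). Plasma cell markers were at 1.43 times at 4 h and 0.492 times at 8 h. The part of these markers in the result was not tested. Cells of 1 library are not replicates, and these ratios describe that library.

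In the 75 CD3E-gated cells with a PYCR1 UMI at 4 h, PHGDH was at 320.1 CPM against 93.9 CPM in the others (ratio 3.41, 2.90 to 3.99). The ratio there was 3.98 for PSAT1 (2.17 to 6.80), 3.52 for ASNS (2.51 to 4.82) and 1.40 for ATF4 (1.24 to 1.57). The cells with a PYCR1 UMI were deeper, at a median of 6603 against 4736 UMIs, and had 1.78 times the level of lymphocyte activation markers (1.65 to 1.91), whose part in the result was not tested. MYC among these markers was at 1.06 times (0.838 to 1.32). At 8 h, with 38 such cells, the activation markers were at 1.66 times and MYC at 0.550 times (0.339 to 0.844). The 8 h ratio was 5.15 for PSAT1 (2.11 to 10.9), 1.96 for PHGDH (1.45 to 2.60) and 1.27 for ATF4 (1.05 to 1.53). For ASNS it was 2.37 (0.998 to 4.83) and for SHMT2 1.75 (0.893 to 3.12), with intervals that included 1. DDIT3 was at 0.240 times (0.0289 to 0.874), from 2 UMIs in the cells with a PYCR1 UMI.

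Beyond the 10 members, 6 lists with 84 further genes of amino acid supply, tRNA charging and the stress response were described in MS4A1-gated cells, where 3.63%, 3.63% and 3.22% of all genes were at least 2-fold higher at 2 h, 4 h and 8 h. Of the 20 cytosolic aminoacyl-tRNA synthetases, which load amino acids onto tRNAs, 0 were at least 2-fold higher at 2 h, 8 at 4 h (AARS1, CARS1, GARS1, IARS1, NARS1, TARS1, WARS1 and YARS1) and 1 at 8 h (IARS1). Their median log2 ratio was 0.37, 0.81 and 0.53, beside -0.13, -0.11 and 0.01 for all genes. GARS1 was at 62.1 CPM without LPS and 116, 174 and 101 CPM after 2 h, 4 h and 8 h. YARS1 was at 22.2, 39.2, 63.7 and 39.6 CPM and IARS1 at 17.4, 26.8, 39.8 and 38.4 CPM. WARS1, which interferon also induces, was at 227 CPM without LPS and 224, 469 and 431 CPM after 2 h, 4 h and 8 h. QARS1 was lower with LPS, at 57.2, 50.2, 43.4 and 46.5 CPM. The charging enzymes as a list thus stood highest at 4 h, as PYCR1 and ASNS did in the MS4A1-gated cells kept.

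Of the 13 serine, glycine and one-carbon enzymes, 7 to 8 reached 20 UMIs. None was 2-fold higher at 2 h, 2 were at 4 h (PSPH and CBS) and 1 at 8 h (CBS). PSPH, the last enzyme of serine synthesis, was at 14.2 CPM without LPS and 19.7, 41.5 and 26.5 CPM after 2 h, 4 h and 8 h, a 4 h ratio of 2.92 (2.38 to 3.61). CBS, which joins serine and homocysteine, was at 8.21, 9.45, 34.5 and 24.3 CPM, a 4 h ratio of 4.20 (3.24 to 5.53). MTHFD2, a mitochondrial one-carbon enzyme, was at 26.2, 40.5, 44.4 and 37.2 CPM, and MTHFD1L, the mitochondrial synthetase, at 46.9, 60.4, 75.5 and 60.8 CPM. The cytosolic MTHFD1 was at 29.3, 18.7, 20.9 and 39.8 CPM, low where the mitochondrial enzymes were high at 2 h and 4 h. SFXN1, a mitochondrial serine carrier, had an 8 h ratio of 0.771 (0.526 to 1.11).

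None of the 12 proline, ornithine, glutamine and aspartate enzymes was 2-fold higher at any time, and 1, ASS1 of the urea cycle, was 2-fold lower at 4 h and 8 h (beside 8.28% and 3.11% of all genes), from 27 UMIs without LPS to 11 and 4. PYCR3, which encodes a cytosolic pyrroline-5-carboxylate reductase, was at 62.3, 54.7, 60.9 and 52.7 CPM, without the 4 h peak of PYCR1. OAT, which feeds ornithine carbon towards proline, was at 43.6, 71.0, 84.5 and 57.0 CPM, a 4 h ratio of 1.94 (1.71 to 2.19). The transaminases GOT1 and GOT2 and the glutamine synthetase GLUL had 8 h ratios of 1.12, 1.32 and 0.883.

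Among 12 amino acid transporters, 1 was at least 2-fold higher at 2 h (SLC1A5), 3 at 4 h (SLC1A5, SLC6A9 and SLC7A11) and 1 at 8 h (SLC6A9). SLC1A5, the glutamine carrier, was at 16.9 CPM without LPS and 88.4, 57.2 and 31.0 CPM after 2 h, 4 h and 8 h, a 2 h ratio of 5.22 (4.37 to 6.28). SLC6A9, a glycine carrier, had ratios of 1.68, 2.83 and 2.07 at 2 h, 4 h and 8 h. SLC7A5 and SLC38A1, carriers of large neutral amino acids and of glutamine, had 2 h ratios of 1.33 and 1.61. SLC43A2 was the only transporter 2-fold lower, at 37.3, 22.5, 15.0 and 22.2 CPM, and only at 4 h, beside 8.28% of all genes. The glutamine carrier was thus highest at 2 h and the glycine carrier at 4 h.

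A list of 12 genes held kinases, initiation factors and phosphatase subunits of the integrated stress response. Of these, PPP1R15A was 2-fold higher at 2 h and EIF2AK2 and EIF2B1 at 4 h, with none at 8 h. PPP1R15A encodes GADD34, the ATF4-induced subunit that reverses eIF2 phosphorylation. It was at 15.9 CPM without LPS and 36.0, 19.9 and 26.2 CPM after 2 h, 4 h and 8 h. EIF2AK2 encodes the double-stranded RNA kinase PKR, which interferon induces, and was at 39.6, 50.1, 167 and 61.5 CPM. The endoplasmic reticulum kinase gene EIF2AK3 was lower with LPS (27.1, 18.7, 19.1 and 18.1 CPM), and the amino acid sensor EIF2AK4 was at 41.4, 29.5, 33.8 and 39.6 CPM. EIF2B3 and EIF2B4, subunits of the eIF2 exchange factor, had 8 h ratios of 1.03 and 1.34.

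Of 15 other targets and partners of ATF4, 14 were listed and 11 reached 20 UMIs. At 2 h ATF3 and SESN2 were at least 2-fold higher, at 4 h SESN2 and NIBAN1, and at 8 h ATF3. JDP2 was 2-fold lower at 4 h and ATF5 at 8 h, beside 8.28% and 3.11% of all genes. SESN2, an inhibitor of mTORC1, was at 4.54 CPM without LPS and 22.3, 15.3 and 4.29 CPM after 2 h, 4 h and 8 h. NIBAN1, a stress-induced gene, was at 7.84, 14.8, 31.9 and 13.4 CPM. HERPUD1, of the protein degradation machinery of the endoplasmic reticulum, had a 2 h ratio of 1.69 (1.52 to 1.87) and an 8 h ratio of 0.882. XPOT, the tRNA export factor, had an 8 h ratio of 1.54 (1.16 to 2.04), and VLDLR rested on 10 UMIs at 8 h. The median log2 ratio of this list at 4 h was 0.01, so the 4 h difference of the synthetases was not shared by the list as a whole.

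**Figure D4:**
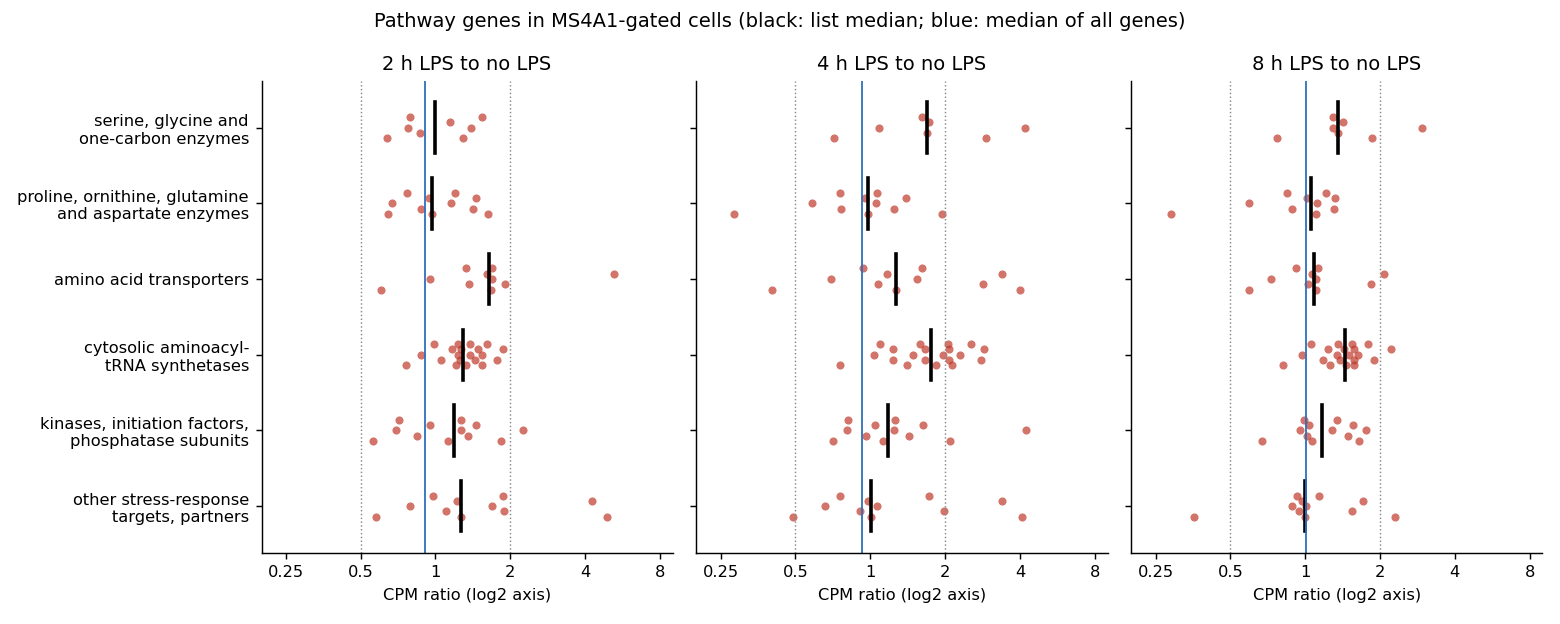
CPM ratio to no LPS in MS4A1-gated cells for each gene of 6 pathway lists with at least 20 UMIs, on a log2 axis. Each red point is a gene, black bars are list medians, the blue line is the median of all genes and dotted lines mark 0.5 and 2. The synthetases lie to the right of the blue line at 4 h except for 1 gene.

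The genes whose levels were most like that of PYCR1 over the 16 sums of 4 gates by 4 libraries (Pearson's r of log2(CPM + 1), among 10007 genes) were SAE1 (0.894), CSNK2B (0.873), C7H5orf63 (0.871), PSPH (0.868) and UBFD1 (0.866). Among the members r with PYCR1 was 0.862 for PSAT1, 0.760 for SHMT2, 0.743 for ASNS and 0.733 for PHGDH, and 0.210 for ATF4. The genes most like ATF4 were the unnamed ENSBTAG00000014880 (0.806), IFI30 (0.803), MYO1C (0.788), CD72 (0.785) and CD83 (0.782). The 16 sums share libraries and gate makeup and differ widely in depth, so these values are descriptions. Among the members DDIT3 was the most like ATF4 (0.610).

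Accessibility was a readout that the choice of genes did not use. The scATAC-seq tables hold counts per gene for all members but DDIT3. The library without LPS summed to only 975012 counts, against 11957904 to 30250143 in the LPS libraries, so the LPS libraries were compared with each other. PYCR1 had 29.7 CPM of accessibility without LPS (16.5 to 49.5, from 29 counts) and 21.6, 19.2 and 15.7 CPM after 2 h, 4 h and 8 h. Its 2 h ratio to no LPS was 0.726, with an interval that included 1 (0.430 to 1.33). The 4 h ratio to 2 h was 0.889 (0.752 to 1.05) and the 8 h ratio 0.728 (0.573 to 0.919). For the RNA over all cells the corresponding ratios were 2.36 (2.08 to 2.67) and 1.76 (1.49 to 2.08). The PYCR1 RNA was thus higher at 4 h and 8 h than at 2 h while its accessibility was not. Accessibility was summed over all barcodes without gates, so a difference within a cell class was not tested. The 8 h library was also shallower, at a median of 2250 counts per barcode against 5171 at 2 h.

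ATF4 accessibility was 215, 216 and 246 CPM at 2 h, 4 h and 8 h, an 8 h ratio of 1.14 (1.07 to 1.22), where the ATF4 RNA had a ratio of 0.814 (0.793 to 0.836). ASNS accessibility was 221, 225 and 264 CPM, an 8 h ratio of 1.196 (1.13 to 1.27) beside 0.719 (0.629 to 0.819) for its RNA. PSAT1 was higher at 8 h in both, at 1.25 (1.14 to 1.37) in accessibility and 2.18 (1.89 to 2.50) in RNA. PHGDH was lower at 8 h in both, at 0.773 (0.719 to 0.831) and 0.846 (0.817 to 0.877). SHMT2 accessibility had an 8 h ratio of 0.923 (0.791 to 1.08). Over the 9 members the median accessibility ratio was 1.00 at 4 h and 1.09 at 8 h, beside 0.998 and 1.00 for all genes. The members ranged from 0.728 to 1.25 at 8 h, inside the range from 0.417 to 1.38 that held 90% of all genes. That range takes in genes with as few as 40 counts over the compared libraries, whereas the members had 188 to 3158 counts at 8 h. Sparse genes spread more by counting error, so nothing is read from the members lying inside it. None of the 9 was 2-fold apart in either comparison, where 2.84% and 8.84% of all genes were.

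**Figure D5:**
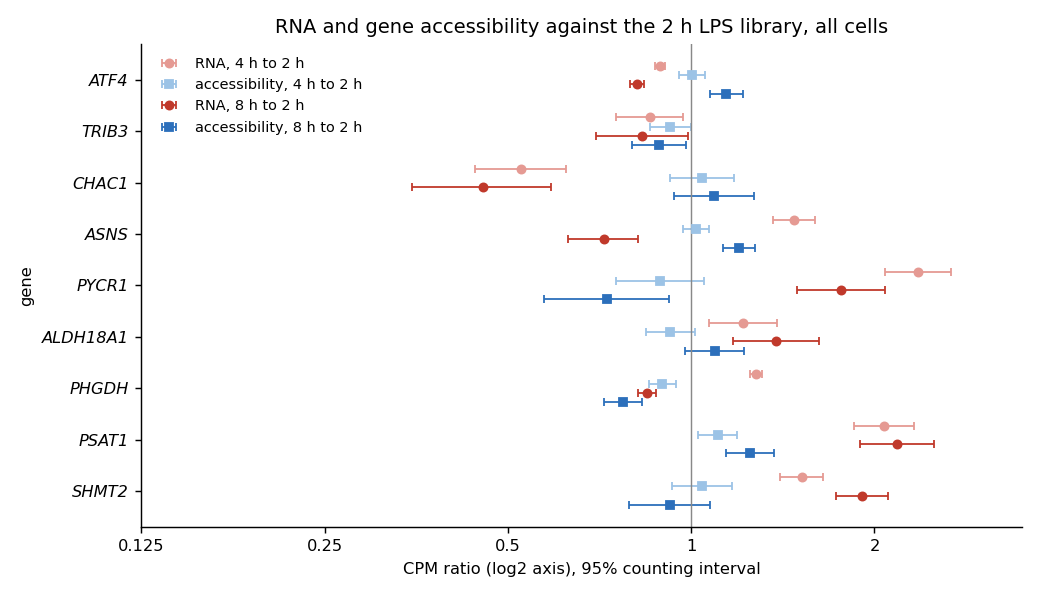
CPM ratio of the 4 h and 8 h LPS libraries to the 2 h LPS library for RNA (circles, all cells kept) and for accessibility (squares, all barcodes), on a log2 axis, with 95% counting intervals. PYCR1 lies right of 1 in RNA (2.36 and 1.76) and left of 1 in accessibility (0.889 and 0.728).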

How the data were processed

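Single-cell RNA and chromatin accessibility were measured in blood mononuclear cells of 4 pooled cows, with 1 library per treatment and assay. The tables deposited by the authors hold unnormalised counts, of UMIs for RNA and of accessibility per gene, for each barcode, made with Cell Ranger on ARS-UCD1.2. The rule that ties accessibility counts to a gene is not given in the sources used here. Most accessibility values were even, so the intervals were computed on counts divided by 2.

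From the RNA tables, a barcode was kept if it had 200 to 3000 genes, 200 or more UMIs and a mitochondrial share below 20%. No doublet caller was run. Cells were gated on at least 2 UMIs of CD14 or 1 UMI of CD3E, MS4A1 or NCR1, without any other gate marker. The CD3E, MS4A1 and NCR1 gates left cells out for CD14 only from 2 UMIs of it. UMIs were summed per gate and library, divided by the total of that sum and multiplied by 1000000 (CPM). Intervals were exact Poisson for levels, conditional binomial for ratios and Clopper-Pearson for shares, at the 95% level. UMIs of cells in 1 library are not replicates, so no p-value was computed. A value of 0 UMIs was taken to allow up to 3 UMIs. The 2-fold limit was applied to genes whose compared libraries together held 20 UMIs or more (40 counts in accessibility). A gene name that occurs more than once was read from its first row. Scripts used Python 3.11.15 with numpy 2.4.6, scipy 1.17.1 and pandas 2.3.3, and R 4.3.3 with edgeR 4.0.16 and DESeq2 1.42.0 for scaling factors only. The ratio step was tested on simulated counts.

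The members and lists were chosen with earlier results of these data known. All members are named. Among the pathway genes the text names those with the 3 highest and 2 lowest 8 h ratios per list over all cells at 200 or more UMIs, and, chosen after their values were seen, genes past the 2-fold limit and other steps of the same pathways. The 5 genes most like PYCR1 and ATF4 are named too. A few genes and the results that need them are not reported here. Alternatives changed the cell limits, gates, scaling, weighting and pseudocount. Those on cells rich in JCHAIN and MZB1, and the comparison of cells with and without a PYCR1 UMI at 4 h, were added after seeing the data. Promoter and protein sequences of the build used were not analysed here.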

Additional observations from a re-analysis of the deposited data

Results flagged for a closer look

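Among ratios with at least 20 UMIs over the 2 libraries, the counting intervals of a member's ratio to no LPS lay on opposite sides of 1 in a pair of gates in 7 cases. ASNS at 2 h in CD14-gated cells (1 UMI against 14 without LPS) fell under that minimum. These differences rest on 1 library per treatment and were not tested. PHGDH at 2 h had a ratio of 1.12 in MS4A1-gated cells, 0.371 in CD14-gated cells and 0.882 in CD3E-gated cells, so the first was 3.02 times the second and 1.27 times the third. ATF4 at 2 h had a ratio of 1.57 in MS4A1-gated and 1.27 in NCR1-gated cells, which were 1.89 and 1.53 times the 0.830 of the CD14-gated cells. ATF4 at 8 h had a ratio of 1.31 in the NCR1-gated cells, from 38 cells at 8 h. This was 1.57 times the ratio in CD14-gated cells (0.839), 1.41 times that in CD3E-gated cells (0.931) and 1.40 times that in MS4A1-gated cells (0.936).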

How the results depend on the processing

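No paired analysis was possible because each treatment had 1 library per assay, and for the same reason no library could be left out. Of the alternative values for the main results, 165 stayed within the counting interval or the 1.5-fold limit on counts, 42 moved, and none of the ratios past 2-fold turned to the other side of 1. Ratios near 1 did turn: that of ATF4 over all cells at 4 h lay between 0.979 and 1.02, and that of ATF4 in MS4A1-gated cells at 8 h between 0.912 and 1.00. The cause of these moves was not tested. With no upper limit on genes per cell, the PYCR1 ratios at 2 h, 4 h and 8 h were 1.19, 2.32 and 2.21 over all cells and 2.05, 4.26 and 3.73 in MS4A1-gated cells. The ATF4 ratio was then 1.08 over all cells at 2 h, and 1.50 at 2 h and 1.00 at 8 h in MS4A1-gated cells. The number of members at least 2-fold higher was 1 over all cells at 2 h, 1 in CD14-gated cells at 4 h and 1 in CD3E-gated cells at 8 h. With cells holding at least 20 UMIs of JCHAIN and MZB1 also left out, the 8 h values over all cells were 3.67 for PYCR1, 0.948 for ATF4 and 4 members. Weighting gates as in the library without LPS gave 3.30 for PYCR1 at 4 h, 1.10 and 1.02 for ATF4 at 2 h and 4 h, and 1 member at both 2 h and 8 h. The mean of per-cell CPM gave 1.08, 0.979 and 0.999 for ATF4 and 0 members at 2 h. For ATF4, DESeq2 size factors gave 1.16 at 2 h and 0.844 at 8 h, and TMM gave 0.843 at 8 h. The members at 8 h over all cells numbered 1 under DESeq2 size factors, 1 under TMM, 1 with a pseudocount of 1 CPM and 1 in cells with at least 2000 UMIs. Counting cells with a second gate marker gave 1.51 for ATF4 at 2 h in MS4A1-gated cells. It gave 1, 4 and 2 members in CD14-gated cells, 1 in CD3E-gated cells at 2 h and 0 in NCR1-gated cells at 4 h. A gate of at least 1 UMI of CD14 gave 1, 1 and 2 members in CD14-gated cells. A gate of at least 2 UMIs of every marker gave 1 in CD3E-gated cells at 8 h and 0 in NCR1-gated cells at 4 h. The share of all genes past 2-fold was not computed under the alternatives, so nothing is read from these numbers of members. The median accessibility ratios stayed at 1.00 to 1.01 at 4 h and 1.07 to 1.09 at 8 h under the alternatives run. Depth limited CHAC1 in MS4A1-gated cells at 8 h, where 16 UMIs gave an interval of 0.644 to 2.55.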
